A study of Mus musculus with 15 samples.

Results

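Ms4a1, Cd79a, Cd79b, Cr2, Fcer2a, Pax5, Cd22, Blk and Fcrla, 9 genes that mark B lymphocytes, were read from whole mouse lungs before and after bleomycin, a drug that breaks DNA and scars the lung. They were chosen by symbol among the 33340 genes of the deposited count table. Each had 1 entry there, and all 9 were among the 17457 genes that passed the filter on low counts. The lungs came from C57BL/6 mice, young adult males by the study's methods, and no transgene or deletion is named for any group. The 4 libraries of day 0 were titled as controls, and those of days 7 (4 libraries), 14 (4) and 21 (3) came from mice given intratracheal bleomycin at 5 U/kg. Day 0 replicate 4 carried a treatment label that named bleomycin, and its title decided its group. Because the whole lung was used, each value averages over every cell type of the organ and over any blood or lymphoid tissue attached to it. Nothing in the labels ties the libraries to separate animals, so p-values measure only the spread between these samples.

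B cells recognise antigen through a membrane immunoglobulin, which signals through the paired chains Cd79a and Cd79b. Co-receptors on the same cell tune that signal. Cr2 binds complement on the antigen and lowers the threshold for activation, whereas Cd22 binds sialic acid and dampens the response. Pax5 is the transcription factor that keeps a cell committed to the B lineage, and it is switched off when the cell becomes an antibody-secreting plasma cell. Resting lungs hold few B cells, and lungs under lasting injury can gather them into follicles near airways and vessels.

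The RefSeq promoter table (GRCm38.p6) held an entry for 6 of the 9 genes, and the 250 bases before each start were searched on both strands for 4 motifs of B cell transcription factors. The E2A core CAGGTG was found for 5 of these 6 genes (Cd79a, Cr2, Cd22, Fcrla and Fcer2a, the last with 3 listed starts), while 17.2% of the 32851 promoters of that length held it. These units differ, since a gene counted if any of its starts matched and the share is over single promoters. The 6 genes had 8 starts, and Fcer2a matched only at start 2. The EBF1 core CCCNNGGG was found for Cd22 alone, against 11.8% of all promoters. Neither the octamer ATGCAAAT (1.6% of all promoters) nor the PU.1 core GAGGAAGT (2.44%) was found for any of the 6, which says only that these letters were not in these windows. Promoters of 4 genes are shown, Cd22 as the gene that stood apart and the others as examples of genes whose levels moved together. Pax5 and Fcer2a also moved with the other members (r = 0.931 and 0.933) and are not shown. None of the 4 motifs was found for Pax5. Any link between these motifs and the levels was not tested. The windows are Cd79a at chr7:24897247-24897380 on the plus strand, Cr2 at chr1:195176720-195176969, Fcrla at chr1:170927584-170927833 and Cd22 at chr7:30879029-30879176, these 3 on the minus strand. Bases that GENCODE M21 places in exons were left out, which removed 116 bases for Cd79a and 102 for Cd22. Capitals mark the E2A core or its reverse complement, and in Cd22 the EBF1 core. The E2A match of Cd22 lay in the bases left out.
Cd79a: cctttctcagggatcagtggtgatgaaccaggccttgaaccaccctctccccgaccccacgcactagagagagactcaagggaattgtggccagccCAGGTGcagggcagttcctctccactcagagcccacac
Cr2: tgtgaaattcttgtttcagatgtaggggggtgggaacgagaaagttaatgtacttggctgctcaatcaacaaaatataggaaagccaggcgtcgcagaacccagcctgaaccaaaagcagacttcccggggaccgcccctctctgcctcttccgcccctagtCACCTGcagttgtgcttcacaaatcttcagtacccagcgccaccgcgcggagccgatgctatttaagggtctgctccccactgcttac
Fcrla: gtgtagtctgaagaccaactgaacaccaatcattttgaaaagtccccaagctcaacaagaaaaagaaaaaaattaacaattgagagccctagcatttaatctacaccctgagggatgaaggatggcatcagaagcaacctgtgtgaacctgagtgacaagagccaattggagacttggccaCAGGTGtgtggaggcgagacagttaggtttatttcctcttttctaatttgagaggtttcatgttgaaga
Cd22: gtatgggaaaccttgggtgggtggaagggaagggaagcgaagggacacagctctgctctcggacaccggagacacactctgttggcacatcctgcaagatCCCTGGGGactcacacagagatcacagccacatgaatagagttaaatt
A match is a description of letters and not a measured binding site.

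Libraries held 15652008 to 18020661 counts in total, and the members' own counts ran from 17 (Cr2, day 14 replicate 1) to 723 (Cd79a, day 7 replicate 3). A gene was called where the adjusted p over all genes was under 0.05 and the fold change over 1.5. Levels are given as CPM, the counts scaled to a common library size with TMM factors, in the order of replicates. Within days the libraries differed in the share of counts from 16 mitochondrial genes, which was 2.03% to 2.15% at day 7 and spanned 2.28% to 4.22% at day 0, 2.1% to 4.14% at day 14 and 2.66% to 4.01% at day 21. Markers of lung tissue were present throughout, since 8 lung parenchyma genes summed to 49860 to 65098 CPM at day 0 and to 9832 to 14357 CPM at day 21.

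B cell identity genes were lower at the later days. None of the 9 passed the test at day 7, 6 fell by day 14 and 8 fell by day 21, while Cd22 passed at none of these days. Their summed level was 188, 120, 170 and 108 CPM at day 0 and 130, 64.7, 158 and 45.7 CPM at day 7. It was 31.4, 41.8, 98.3 and 93.0 CPM at day 14 and 41.2, 36.4 and 60.8 CPM at day 21. Every library of days 14 and 21 lay below every day 0 library in this sum, and day 7 overlapped day 0. In whole lung, fewer B cells and less of these RNAs per B cell cannot be told apart.

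**Figure D1:**
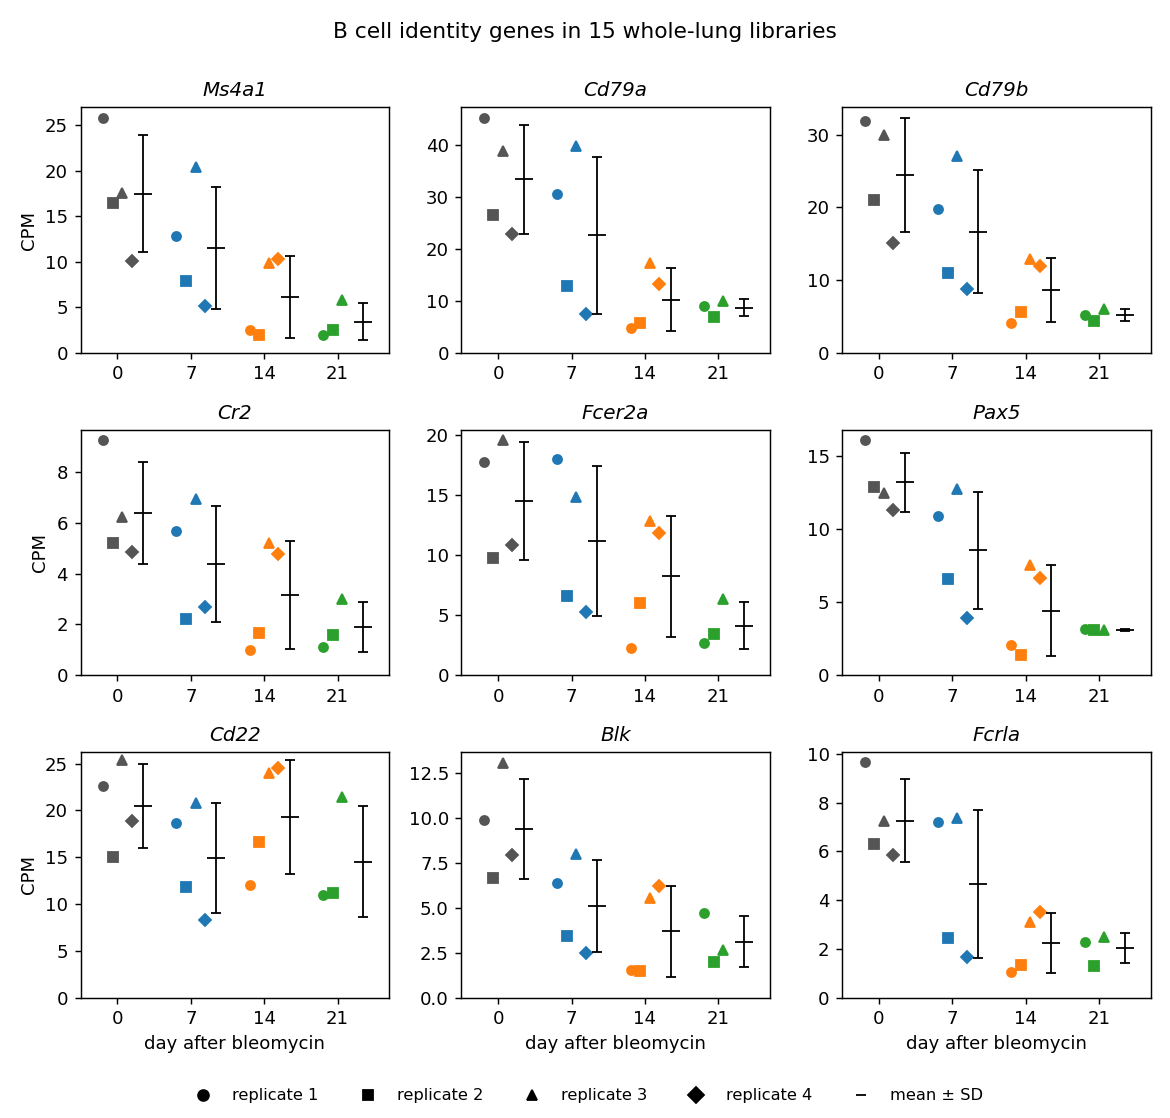
Level of each B cell identity gene in CPM (linear axes, 1 panel a gene) against the day after bleomycin, with a point for each library, its symbol giving the replicate number, and mean ± SD beside each day (n = 4, 4, 4 and 3). Cd79b ran from 15.1 to 31.9 CPM at day 0 and from 4.33 to 6.00 CPM at day 21 without overlap, whereas Cd22 overlapped day 0 at every later day.

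The signalling chains of the antigen receptor were the highest of the 9 per length of exon, and both fell by day 14. Cd79a was measured at 45.2, 26.5, 38.9 and 22.9 CPM at day 0, at 30.5, 12.8, 39.7 and 7.43 CPM at day 7, at 4.73, 5.68, 17.3 and 13.3 CPM at day 14 and at 9.09, 6.89 and 10.1 CPM at day 21. All libraries of days 14 and 21 were below the lowest day 0 library, and at day 7 replicates 1 and 3 sat within the day 0 range. Cd79a fell by 1.70 ± 0.48 (SE) on the log2 scale at day 14 (3.25-fold lower, edgeR quasi-likelihood test, Benjamini-Hochberg adjusted p = 0.0125) and by 1.94 ± 0.53 at day 21 (3.84-fold lower, edgeR adjusted p = 0.0126).

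Cd79b gave 31.9, 21.0, 30.0 and 15.1 CPM at day 0, 19.8, 10.9, 27.1 and 8.80 CPM at day 7, 4.14, 5.68, 12.9 and 11.9 CPM at day 14 and 5.19, 4.33 and 6.00 CPM at day 21. Days 14 and 21 again lay wholly below day 0. It fell by 1.5 ± 0.39 on the log2 scale at day 14 (edgeR adjusted p = 0.0082) and by 2.24 ± 0.45 at day 21 (4.73-fold lower, edgeR adjusted p = 0.00164), the smallest adjusted p among the members in these 2 comparisons. The ratio of Cd79a to Cd79b counts stayed between 0.845 and 1.75 in all 15 libraries.

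Ms4a1, which encodes the surface protein CD20, was measured at 25.8, 16.5, 17.6 and 10.1 CPM at day 0, 12.9, 7.87, 20.4 and 5.11 CPM at day 7, 2.54, 1.98, 9.84 and 10.3 CPM at day 14 and 1.98, 2.56 and 5.76 CPM at day 21. At day 14 replicate 4 reached just above the lowest control, day 0 replicate 4. Ms4a1 fell by 1.5 ± 0.53 on the log2 scale at day 14 (edgeR adjusted p = 0.0413), a call lost when any of 5 libraries was left out (day 0 replicate 1, 2 or 3, or day 14 replicate 1 or 2; largest edgeR adjusted p = 0.106). It fell by 2.34 ± 0.62 at day 21 (5.07-fold lower, edgeR adjusted p = 0.0102), with all 3 libraries below day 0. This log2 change was -2.98 without day 21 replicate 3 and -2.10 without day 21 replicate 1.

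Pax5, the lineage factor, had the narrowest day 0 spread relative to its level, at 16.1, 12.9, 12.4 and 11.3 CPM. It was at 10.9, 6.59, 12.7 and 3.92 CPM at day 7, at 2.07, 1.40, 7.55 and 6.64 CPM at day 14 and at 3.15, 3.08 and 3.06 CPM at day 21. The day 21 libraries were almost equal, with 51 to 54 counts each, and days 14 and 21 did not overlap day 0. Pax5 fell by 1.57 ± 0.44 on the log2 scale at day 14 (edgeR adjusted p = 0.0127) and by 2.09 ± 0.50 at day 21 (edgeR adjusted p = 0.00565).

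Fcrla, an Fc receptor-like protein that stays inside B cells, was at 9.64, 6.29, 7.24 and 5.86 CPM at day 0, 7.19, 2.46, 7.36 and 1.66 CPM at day 7, 1.06, 1.34, 3.09 and 3.5 CPM at day 14 and 2.29, 1.31 and 2.47 CPM at day 21. It fell by 1.68 ± 0.47 at day 14 and by 1.84 ± 0.52 at day 21 on the log2 scale (edgeR adjusted p = 0.0124 and 0.0154), without overlap with day 0 at either day. The day 21 call was lost without day 21 replicate 2 (edgeR adjusted p = 0.0553). On the same strand Fcrla overlaps Gm2962, which had 166 counts over all libraries against 1058 for Fcrla.

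Blk, a Src family kinase that acts below the antigen receptor, was at 9.90, 6.65, 13.1 and 7.92 CPM at day 0, 6.40, 3.40, 8.02 and 2.5 CPM at day 7, 1.54, 1.47, 5.55 and 6.22 CPM at day 14 and 4.70, 1.99 and 2.65 CPM at day 21. Day 7 overlapped day 0, the libraries of days 14 and 21 were all below day 0, and at day 14 the gap to day 0 replicate 2 was narrow. Blk fell by 1.34 ± 0.48 on the log2 scale at day 14 (edgeR adjusted p = 0.0412) and by 1.59 ± 0.53 at day 21 (edgeR adjusted p = 0.034). Leaving out day 0 replicate 1, 3 or 4 or day 14 replicate 1 or 2 ended the first (largest edgeR adjusted p = 0.105), and leaving out day 0 replicate 1 or 3 or day 21 replicate 2 or 3 ended the second (largest edgeR adjusted p = 0.105).

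Cr2 and Fcer2a, which appear on B cells as they mature, passed the test at day 21 and missed it at day 14, while the difference between those days also missed it (edgeR adjusted p = 0.695 and 0.574). Cr2, the complement receptor, was at 9.26, 5.20, 6.22 and 4.85 CPM at day 0, 5.66, 2.23, 6.92 and 2.68 CPM at day 7, 1.0, 1.66, 5.21 and 4.77 CPM at day 14 and 1.11, 1.60 and 3.0 CPM at day 21. At day 14 replicate 3 reached the lower controls and replicate 4 lay just below them. Its log2 change was -1.01 ± 0.49 at day 14 (edgeR adjusted p = 0.127), and it fell by 1.74 ± 0.56 at day 21 (edgeR adjusted p = 0.0285).

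Fcer2a, the low-affinity IgE receptor CD23, was at 17.8, 9.80, 19.6 and 10.9 CPM at day 0, 18.01, 6.59, 14.9 and 5.29 CPM at day 7, 2.25, 6.00, 12.9 and 11.9 CPM at day 14 and 2.66, 3.42 and 6.35 CPM at day 21. Day 14 replicates 3 and 4 were above the lower pair of controls. The log2 change was -0.81 ± 0.48 at day 14 (edgeR adjusted p = 0.213), and Fcer2a fell by 1.81 ± 0.56 at day 21 with no overlap (edgeR adjusted p = 0.0232). The day 21 calls of Cr2 and Fcer2a were both lost without day 21 replicate 1 (edgeR adjusted p = 0.0967 and 0.0801) and without day 21 replicate 2 (0.0783 and 0.0674), and that of Cr2 also without day 0 replicate 1 (0.0669).

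Cd22, the inhibitory co-receptor, passed the test at none of the later days. It was at 22.7, 15, 25.4 and 18.9 CPM at day 0, 18.7, 11.8, 20.8 and 8.32 CPM at day 7, 12.1, 16.6, 24.0 and 24.6 CPM at day 14 and 11.01, 11.2 and 21.4 CPM at day 21. Each later day overlapped day 0. Its log2 change was -0.46 at day 7, -0.08 at day 14 and -0.49 at day 21 (edgeR adjusted p = 0.293, 0.858 and 0.288), with 95% intervals at days 14 and 21 of -0.73 to 0.56 and -1.20 to 0.22. On the opposite strand Cd22 overlaps Gm29439, for which no counts were analysed here. The library kit does not mark strand, so reads of the 2 genes cannot be told apart.

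Read against all genes, 6 of 9 members were called lower at day 14, where 11.2% of the genes tested were, and 8 of 9 at day 21, where 10.1% were (4 of 9 without day 21 replicate 2). At day 7 it was 0 of 9 against 7.36%, and none of the 9 had an unadjusted p under 0.05 or was called by DESeq2. No member was called higher at any of these days, against 8.78%, 12.0% and 12.4% of all genes at days 7, 14 and 21. The later libraries lay wholly below day 0 for 0, 5 and 8 members at days 7, 14 and 21, against 13.2%, 14.4% and 16.0% of all genes. The median log2 change of the 9 was -0.56, -1.5 and -1.84, against 0.01, 0.02 and 0.02 over all genes tested. These 3 comparisons share the day 0 libraries. Among the libraries with a mitochondrial share over 3.5% (2 of day 0, 3 of day 14), 2 members were called at day 14 (Cd79a and Fcrla). With glmTreat, which tests the fold change against 1.5 itself, 0 members were called at day 14 and 3 at day 21.

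**Figure D2:**
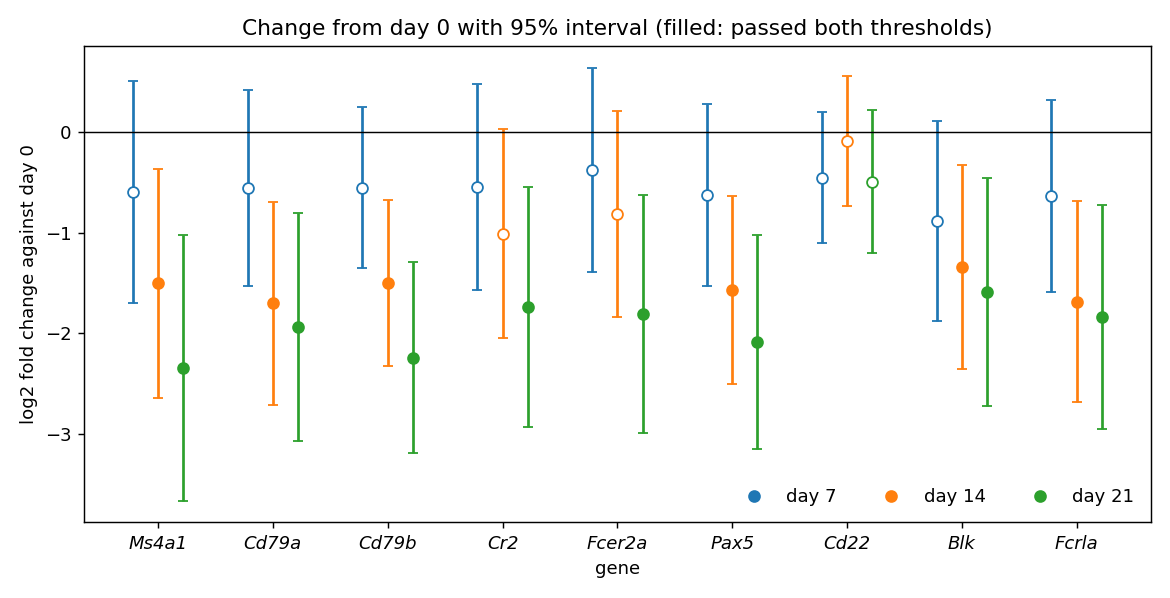
Fitted log2 fold change of each member against day 0 at days 7, 14 and 21 (y axis, log2 units), with 95% intervals from the edgeR fit to 15 libraries; filled points had a fold change over 1.5 and an adjusted p under 0.05. At day 21 the points ran from -2.34 (Ms4a1) to -0.49 (Cd22), and the Cd22 intervals crossed 0 at all 3 days.

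Between the bleomycin days, Cd79b was the member called by edgeR, in 1 of the 3 comparisons. From day 7 to day 14 none of the 9 was called by edgeR or DESeq2, although 4 had an unadjusted p under 0.05, and 3.23% of all genes were called lower. From day 14 to day 21 none was called by edgeR or DESeq2 and none had an unadjusted p under 0.05, and 0.00% of all genes were called lower. From day 7 to day 21 Cd79b alone passed, falling by 1.69 ± 0.44 on the log2 scale (edgeR adjusted p = 0.0232) with all 3 day 21 libraries below all 4 of day 7, where 4.34% of all genes were called lower. In that comparison 7 of the 9 had an unadjusted p under 0.05. Ms4a1 gave -1.75 and Pax5 -1.46 on the log2 scale (edgeR adjusted p = 0.0697 and 0.0618). The Cd79b call was lost without day 7 replicate 1 or 3 or without day 21 replicate 1 or 2 (edgeR adjusted p = 0.0554 to 0.0701). For the same comparison DESeq2 called 3 members (Fcer2a and Pax5 beside Cd79b), edgeR with no filter on low counts called 5, and voom, glmTreat and the mitochondrial covariate called 0. A test for any difference among the 4 days called 5 members (Ms4a1, Cd79a, Cd79b, Pax5 and Fcrla), against 39.9% of all genes.

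Cd22 was also set against the receptor chains within single libraries. The ratio of Cd22 to Cd79b counts ran from 0.71 to 1.25 at day 0 and from 0.767 to 1.08 at day 7, then from 1.85 to 2.92 at day 14 and from 2.12 to 3.57 at day 21. All 7 libraries of days 14 and 21 were above all 8 of the earlier days. This ratio was chosen after the values were seen, so it is a description with no test. Cd22 made up 12.04% to 17.5% of the members' summed CPM at day 0, 24.4% to 39.7% at day 14 and 26.7% to 35.2% at day 21.

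**Figure D3:**
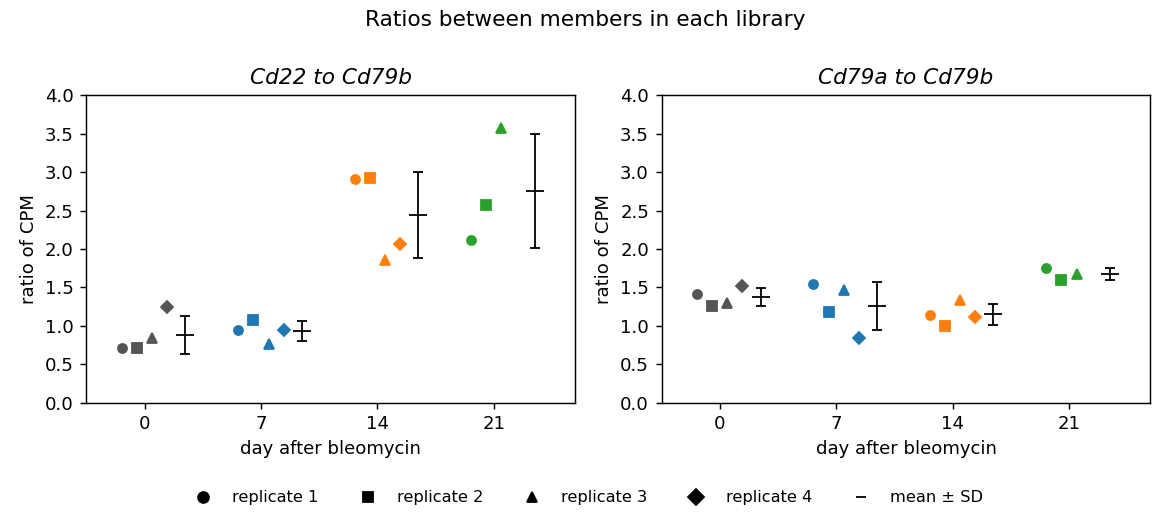
Ratio of Cd22 to Cd79b (left) and of Cd79a to Cd79b (right) in each library against the day after bleomycin, with mean ± SD per day (n = 4, 4, 4 and 3), both on the same linear axis from 0. The first was 0.71 to 1.25 at day 0 and 2.12 to 3.57 at day 21, and the second stayed between 0.845 and 1.75.

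Per kilobase of exon, the day 0 levels were led by Cd79a with a mean of 22.9 CPM per kb (15.699 to 31.0) and Cd79b with 17.1 (10.6 to 22.3). Fcer2a (4.70), Fcrla (4.16), Cd22 (4.06), Blk (3.48) and Ms4a1 (2.83) followed, and Pax5 (1.49) and Cr2 (0.787) were lowest on the same scale. Neighbours in this order overlapped in their ranges, except Cd79b with Fcer2a and Pax5 with Cr2. A library high in one member was high in the others. Over the 15 libraries the 36 pairs of members had a median Pearson r of 0.909 (0.517 to 0.985) in log2 CPM, and 0.870 (0.702 to 0.971) for deviations from the day means. Cd22 correlated at 0.671 with the mean of the other 8, and at 0.887 within days. These correlations are descriptions over libraries that share days and scaling. Inside day 14, replicates 3 and 4 were above replicates 1 and 2 for each of the 9 genes, and inside day 7 replicates 1 and 3 were above replicates 2 and 4 for each.

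Genes whose log2 CPM was among the most like the members' mean over the 15 libraries were Bank1 (r = 0.970), a B cell adaptor, then Ccnb2-ps (0.963, a pseudogene that may share reads with its parent gene), Cxcr5 (0.958), H2-Ob (0.957), Ighd (0.954), Fcmr (0.953), Spib (0.949), Cacna1i (0.946) and Gpr174 (0.943). Cxcr5 guides B cells into follicles, Ighd is the constant region of surface IgD, and Fcmr binds IgM. For deviations from day means the 5 highest were Bank1 (0.959), Spib (0.948), Ackr4 (0.945), Ccnb2-ps (0.943) and Map4k1 (0.938).

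A wider list of 26 B cell genes, all tested, moved mostly in the same direction at days 14 and 21. In it 2 genes were called lower and 1 higher at day 7, 15 lower and 2 higher at day 14, and 13 lower and 2 higher at day 21. Over all genes tested 7.36%, 11.2% and 10.1% were called lower and 8.78%, 12.0% and 12.4% higher at these days. The list's median log2 change was -0.45, -1.12 and -0.92. Vpreb3, a receptor assembly protein, was tight at day 0 (18.5, 18.4, 17.7 and 17.9 CPM) and came to 3.13, 2.1, 2.75 and 2.96 CPM at day 14 and 5.01, 1.77 and 1.18 CPM at day 21. It fell by 2.72 ± 0.33 on the log2 scale at day 14 (edgeR adjusted p = 2.25e-05). Ighd fell by 1.54 and 1.94 at days 14 and 21, and Ighm, the heavy chain of IgM, fell by 2.07 at day 14 (edgeR adjusted p = 0.0124) but gave -0.70 ± 0.61 at day 21 (edgeR adjusted p = 0.412). Both genes called higher, Ly86 (1.39 at day 14) and Cd180 (1.01), also mark macrophages and dendritic cells, as background.

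Plasma cell genes were read beside the members. Of 14 listed genes 13 were tested, and 4, 1 and 5 of them were called higher at days 7, 14 and 21, against 0, 2 and 1 called lower. Over all genes tested 8.78%, 12.0% and 12.4% were called higher and 7.36%, 11.2% and 10.1% lower. The single higher call of day 14, and 1 of the 4 at day 7, was Sdc1 (0.65 and 0.82 on the log2 scale), which epithelial cells also express, as background, and which had a mean of 272 CPM at day 0. Several of the higher calls did not hold with a library left out. At day 7 that of Igha was lost in 4 of 8 fits with a library left out, that of Ighg3 in 6 and that of Ighg2c without day 7 replicate 1, and at day 21 that of Igkc, the kappa light chain, was lost in 5 of 7. Igha, the heavy chain of IgA, was at 46.4, 33.1, 9.97 and 3.07 CPM at day 0 and at 1115, 142 and 672 CPM at day 21. All 3 day 21 libraries were above all controls, and Igha rose by 4.80 ± 1.01 on the log2 scale (edgeR adjusted p = 0.00232). Jchain, which links IgA and IgM units, rose by 3.58 ± 1.02 at day 21 (edgeR adjusted p = 0.0151), a call lost without day 21 replicate 1 (edgeR adjusted p = 0.0577). The ratio of Jchain to Cd79a counts, described after the values were seen, was 0.0902 to 1.77 at day 0 and 9.25 to 42.8 at day 21. Ighg1 (5.06) and Ighg2c (5.17) also rose at day 21 (edgeR adjusted p = 0.031 and 0.0313). Both calls were lost without day 0 replicate 1, 3 or 4 or without day 21 replicate 1 (edgeR adjusted p up to 0.169 for Ighg1 and 0.187 for Ighg2c). Heavy chain genes resemble each other and reads with several alignments were excluded, so the split between Ighg1 and Ighg2c is uncertain.

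**Figure D4:**
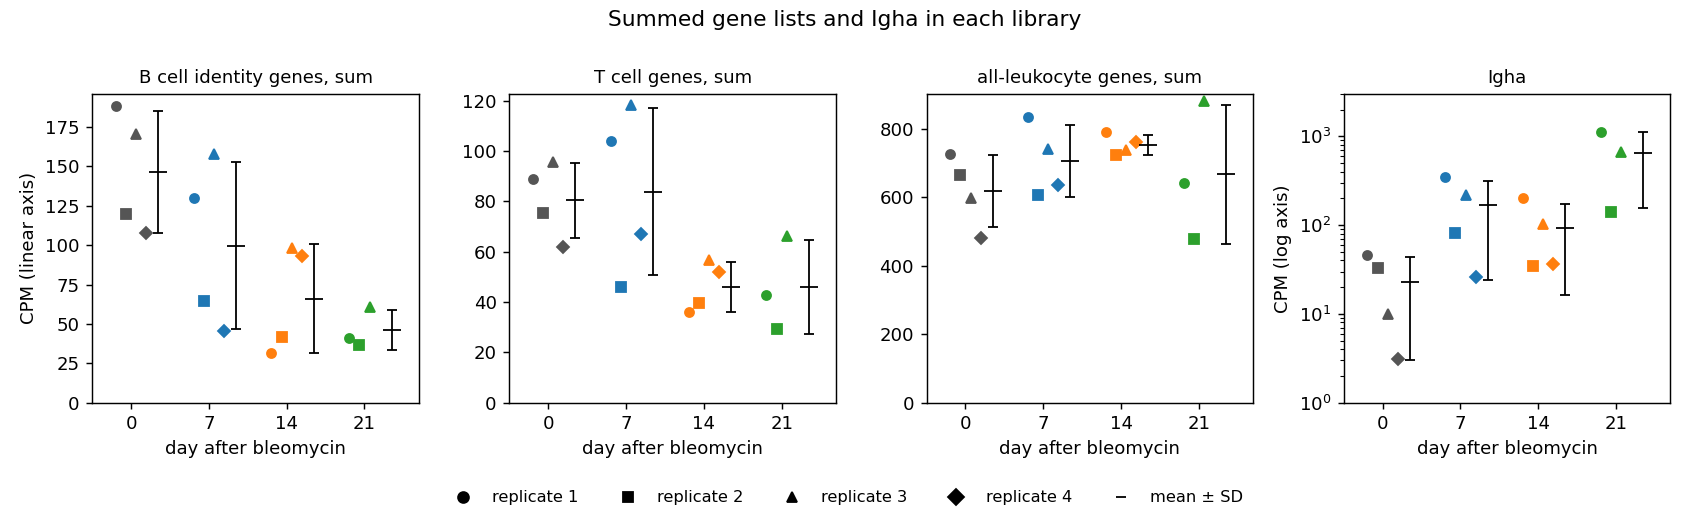
Summed CPM of the 9 B cell identity genes, of 12 T cell genes and of 5 all-leukocyte genes (linear axes from 0), and CPM of Igha (log axis), in each library against the day after bleomycin, with mean ± SD per day (n = 4, 4, 4 and 3). The B cell sum was 108 to 188 CPM at day 0 and 36.4 to 60.8 CPM at day 21, while Igha was 3.07 to 46.4 CPM and 142 to 1115 CPM.

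Levels of other cell types were read beside these changes. For 12 T cell genes, all tested, 4 were called lower at day 14 (Cd2, Cd8a, Cd8b1 and Lck) and 1 at day 21 (Cd2), with none at day 7 (none at an unadjusted p under 0.05), and their sum was 61.8 to 95.4 CPM at day 0, 45.8 to 118 CPM at day 7, 35.9 to 56.5 CPM at day 14 and 29.1 to 66.1 CPM at day 21, below day 0 without overlap at day 14 alone. Over all genes tested 11.2% were called lower at day 14 and 10.1% at day 21. At day 14 the call of Cd8b1 was lost in 4 of 8 fits with a library left out (edgeR adjusted p up to 0.0763), that of Lck in 3 (up to 0.0580) and that of Cd8a without day 0 replicate 3 (0.0506), while Cd2 was called in all 8. Within days the T cell score correlated with that of the members at 0.797. None of the 5 all-leukocyte genes was called lower at any of the 3 days, 2 were called higher at day 14 (Cd52 and Laptm5) and 1 at day 21 (Laptm5), and the sum was 482 to 725 CPM at day 0, 607 to 835 CPM at day 7, 723 to 791 CPM at day 14 and 479 to 881 CPM at day 21, overlapping day 0 at each later day. The summed level of 5 adipose genes, read as a sign of attached fat, was 19.2 to 51.6 CPM at day 0, 7.65 to 91.5 CPM at day 7, 1.0 to 3.64 CPM at day 14 and 0.741 to 2.54 CPM at day 21. Of the 4 tested, 1, 4 and 3 were called lower at days 7, 14 and 21. Cidec held much of the day 0 sum, at 17.1 to 19.3 CPM in each library. Adipoq ran there from 0.129 to 2.29 CPM and Cfd from 0.583 to 30.4 CPM. Cidec was also the gene called at day 7, so the sum does not measure attached fat alone. The adipose score correlated with that of the members at 0.496 over the 15 libraries and at -0.205 within days. By gene, r with the members' mean over the 15 libraries was 0.752 for Cidec and 0.322 to 0.419 for Adipoq, Plin1 and Cfd. The score of the 9 tested genes of lymphoid tissue and B cell survival correlated at 0.683 over the 15 libraries and at 0.862 within days. The part of attached tissue in the members' change was not tested. With the log2 mitochondrial share as a covariate, 5 members were called at day 14 (Ms4a1 was lost at a log2 change of -1.46 against -1.5, edgeR adjusted p = 0.0656) and 8 at day 21.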

How the data were processed

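Polyadenylated RNA of 15 whole-lung libraries was analysed. The authors trimmed reads with TrimGalore, aligned them to mm10 with HISAT2 2.1.0, dropped multi-mapped reads, and deposited unnormalised read counts per gene from HTSeq 0.6.0. Annotation release and strand setting are not given in the sources used here. Symbols and exon lengths came from GENCODE M21, which matched 33267 of 33340 genes. Groups and replicate numbers came from the titles.

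Counts were fitted with edgeR 4.0.16 in R 4.3.3 (filterByExpr on day, TMM, estimateDisp, glmQLFit, glmQLFTest), with the day group as sole term over all 15 libraries and 17457 genes. Calls needed a fold change over 1.5 and a Benjamini-Hochberg adjusted p (all genes) under 0.05. The study set both limits, with DESeq2 1.40.2. Log2 CPM used a prior count of 2. List scores are means of z-scored log2 CPM. Counts have Poisson error beside the spread between libraries, so values from under 50 counts are the least precise.

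The members and lists were chosen with earlier results of these data known. Of 12 further lists, the genes called in any comparison with day 0 (at most 6 a list, largest change first), plus Ighm, Ighd and Cxcl13, were to be named, with the 10 genes most like the members and the 5 most like them within days. A further gene under this rule is not reported here. Genes from lists outside the B cell, germinal centre, plasma cell, lymphoid tissue and T cell lists are mostly described by counts and sums, and a few of them are named. Alternatives were DESeq2 1.42.0, limma 3.58.1 voom, RLE factors, total count scaling, no filter or a minimum mean of 1 CPM, 2 groups only, a replicate block, no fold threshold, glmTreat, each library left out, the mitochondrial share as a covariate, and fits within libraries under 2.5% or over 3.5% of it.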

Additional observations from a re-analysis of the deposited data

Results flagged for a closer look

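In the main edgeR fit Cd79b was the sole member called between bleomycin days, by -1.69 on the log2 scale at day 21 against day 7 (edgeR adjusted p = 0.0232), with all 3 day 21 libraries below all 4 of day 7. Its call was lost in 4 of 7 fits with a library left out. DESeq2 called 3 members there, no filter called 5, and voom, glmTreat and the mitochondrial covariate called 0. Other members missed the threshold, which does not show that they were unchanged.

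In 102 groups of 4 libraries, over the members and the named lymphoid genes, 7 held a library far from the other 3, where chance gives about 1 in 20. No member was among them. Ighg2c was at 851.2 CPM in day 7 replicate 1 (others 4.69 to 28.9 CPM), and Ighg1 was at 28.7 CPM in the same library (others 0.0595 to 0.335 CPM). Ighg3 was at 93.0 CPM in day 7 replicate 3 (others 0.279 to 6.57 CPM). Both libraries had the 2 highest member sums of day 7 (130 and 158 CPM). Cxcl13, a chemokine that draws B cells, was at 18.1 CPM in day 0 replicate 2 (others 1.90 to 4.596 CPM) and at 50.0 CPM in day 14 replicate 1 (others 6.06 to 10.8 CPM), the day 14 library with the lowest member sum (31.4 CPM). Bcl6 was at 75.9 CPM in day 0 replicate 1 (others 58.8 to 61.1 CPM) and at 51.5 CPM in day 7 replicate 3 (others 41.5 to 43.1 CPM).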

How the results depend on the processing

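The count of members called lower was 0 at day 7 in every alternative run. At day 14 it was 6 with most alternatives, 5 with the mitochondrial covariate, 2 within libraries of a higher mitochondrial share and 0 with glmTreat at a fold change of 1.5. With a library left out it was 4 to 6. It was 4 without day 0 replicate 1 or 3 or day 14 replicate 1 or 2, and 5 without day 0 replicate 2 or 4. At day 21 it was 8 with most alternatives, 3 with glmTreat, and 4 to 8 with a library left out, the 4 without day 21 replicate 2. Day 21 against day 7 moved from 1 to 5 with no filter, 3 with DESeq2, 2 with only the groups compared, 0 with voom, glmTreat or the covariate, and 0 to 3 with a library left out. Any difference among the days moved from 5 to 8 with no filter. Over all genes, glmTreat called 703, 1755 and 1754 against 2818, 4040 and 3924 at days 7, 14 and 21, and the covariate gave 1269 and the absence of a fold threshold 4365 at day 7. Between the later days, glmTreat called 14 (day 14 against day 7) and 176 (day 21 against day 7) against 1048 and 1665. The covariate called 218 and 942 there, and DESeq2 called 1634 for the first and 101 for day 21 against day 14, where edgeR called 0 of 17457 (1714 with an unadjusted p under 0.05) and 37 with no filter. The causes were not tested.

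Replicate numbers were not taken as pairing the libraries, since not every same-numbered pair had a correlation of deviations over 0.1 (8 of 21 did, median 0.041), although different-numbered pairs were lower (13 of 63, median -0.032). Of 15 libraries 7 correlated best with their own number. With the replicate block the member counts were 0, 6 and 8 at days 7, 14 and 21, 0, 1 and 0 for the later comparisons, and 7 for any difference.

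Signs turned only for changes that missed the threshold. Fcer2a at day 7 gave 0.000738 with the covariate. Lck at day 7 gave -0.0027 with a mean of 1 CPM, -0.0098 with the block, -0.0011 with the covariate and -0.081 within libraries of a lower mitochondrial share. At day 14 Igkc gave 0.041 with the covariate and 0.36 within libraries of a higher mitochondrial share, Ighg2c -0.22 with the block and Ighg3 -0.22 with voom. With a library left out, ranges that crossed 0 were -0.23 to 0.064 for Cd22 at day 14, -0.45 to 0.17 for Cd22 from day 7 to day 21, and -0.49 to 0.14, -0.67 to 0.12 and -0.40 to 0.14 for Cd79a, Blk and Fcrla from day 14 to day 21. They were -0.71 to 5.08 for Ighg1, -0.33 to 0.14 for Cd8b1, -0.33 to 0.0071 for Cd8a and -0.16 to 0.21 for Lck at day 7, -0.30 to 1.30 for Ighg2c, -1.31 to 1.04 for Ighg3 and -0.52 to 0.27 for Igkc at day 14, and -1.65 to 2.27 for Ighg3 at day 21.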

Other observations

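Genes of neighbouring programmes were read as counts, beside the 7.36%, 11.2% and 10.1% of all genes tested that were called lower and the 8.78%, 12.0% and 12.4% called higher at days 7, 14 and 21. Of 8 germinal centre genes 6 were tested: Mybl1 and S1pr2 rose at day 7 (1.51 and 0.70 on the log2 scale) and day 14 (1.81 and 0.71), Mybl1 rose at day 21 (1.21), and Bcl6 fell by 0.69 at day 14 and by 0.76 at day 21, all by the edgeR test. The S1pr2 call at day 7 was lost without day 0 replicate 3 or 4. Of 12 genes of lymphoid tissue and B cell survival 9 were tested. Ccl21a, a chemokine of lymphatic vessels, rose by 0.60 at day 14 and 1.13 at day 21, and Ltbr rose by 0.68 and 0.72. At day 14 the Ccl21a call was lost in 6 of 8 fits with a library left out (edgeR adjusted p up to 0.143) and the Ltbr call without day 14 replicate 2. Tnfsf13b, which encodes the B cell survival factor BAFF, fell by 0.67 at day 14, and Tnfsf13, which encodes APRIL, fell by 1.17, 0.91 and 1.21 at days 7, 14 and 21. The Tnfsf13b call was lost without day 14 replicate 2. The Tnfsf13 call was lost without day 7 replicate 2 at day 7, in 6 of 8 fits with a library left out at day 14 (edgeR adjusted p up to 0.0903), and without day 21 replicate 1 or 2 at day 21. Cxcl13 gave 1.88, 1.48 and 1.77 on the log2 scale, none past the threshold (edgeR adjusted p = 0.0827, 0.149 and 0.111). Without day 0 replicate 2 it was called at all 3 days, at 3.06, 2.66 and 2.94 (edgeR adjusted p = 0.0129, 0.0187 and 0.0146).

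Of 5 follicular dendritic cell genes listed, Fdcsp was not tested and 4 were (Enpp2, Clu, Mfge8 and Fcgr2b). Of these, 2, 3 and 3 were called higher and 0, 1 and 0 called lower at days 7, 14 and 21. The 4 had day 0 means from 37.6 CPM (Fcgr2b) to 266 CPM (Mfge8). Which cells gave these counts was not tested. Of 6 plasmacytoid dendritic cell genes 5 were tested, with 1 called lower at day 21 and none otherwise. None of 6 developing B and T cell genes passed the filter. Of 8 lung parenchyma genes 2, 5 and 4 were called lower. Of 7 cardiac muscle genes 6 were tested, and 1 was called lower at day 14. The shares over all genes given above apply to these lists too.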
